A study of Arabidopsis thaliana with 14 samples.

Results

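The genes described are the plastid-encoded genes of photosynthesis in developing seeds of Arabidopsis thaliana. Members were the probe sets that name a single gene on the plastid genome with a symbol starting psa, psb, pet, atp or ndh, or the symbol rbcL. There were 43 such probe sets, 1 per gene, of 22810 on the array. They cover 43 of the 44 genes with these symbols in the plastid genome, and the other is ndhB, which is present in the genome as a repeated copy and whose probe set names both copies. By complex they are 15 genes of photosystem II, 5 of photosystem I, 6 of the cytochrome b6f complex, 6 of the plastid ATP synthase, 10 of the NDH complex and rbcL of rubisco.

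All samples came from genotype Ws-0, from plants aged 38 to 46 days grown at 20 °C in continuous light, with seeds whose linear-cotyledon embryos measured 175 ± 11 µm. The 7 groups were whole seeds, embryo proper, micropylar endosperm, chalazal endosperm, cellularized endosperm, chalazal seed coat and general seed coat, with 2 arrays each. Each compartment was cut by laser from paraffin sections of fixed siliques, and RNA of 2 to 5 ng per sample was amplified and hybridised to the Affymetrix ATH1 array, a 1-colour array of short oligonucleotide probes. The question addressed is how transcript levels differ among the parts of the seed. The endosperm nourishes the growing embryo, the seed coat is a maternal tissue, and the chalazal pole is the end at which the mother plant's vascular strand stops.

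Photosynthesis depends on 2 genomes: the plastid genome encodes the reaction-centre cores and many small subunits of the thylakoid complexes, and the nucleus encodes the rest and the proteins that transcribe, process and translate plastid RNA. Photosystem II splits water, the cytochrome b6f complex passes electrons on to photosystem I, the ATP synthase uses the resulting proton gradient, and the NDH complex returns electrons from photosystem I to the chain. Green embryos of Arabidopsis hold photosynthetic plastids during seed filling. The plastid genome is present in many copies per cell, and most of its genes are transcribed in groups of neighbours.

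Values are signal intensities on a linear scale, which the authors scaled to the same trimmed mean of 500 on every array, so a value is relative to the rest of that array's RNA. Levels of different probe sets were not set against each other. Changes are differences of mean log2(signal + 16), and a member was called where limma's adjusted p was below 0.05 and the change at least 2-fold. The scaled values do not show whether the brightest spots neared the scanner's ceiling, which would shorten differences among them, and this was not tested. Each array pools the cells of a compartment, so fewer plastids or plastid genomes per cell and less RNA per plastid genome cannot be told apart.

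The labels do not say which plants gave a replicate, so p-values measure the spread between these samples, and arrays of 2 per group limit the precision. Titles decided the groups, although a description of the micropylar arrays speaks of whole seeds and the design text names the micropylar endosperm where chalazal endosperm would stand. Of the marker genes, 3 of 3 for the embryo were highest in the embryo proper, with a summed signal of 2978 and 3369 there against 19.4 to 184 on the other compartment arrays. All 4 seed coat markers were highest in a seed coat part, and their summed signal was 13218 to 33020 on seed coat arrays, against 61.2 to 3400 on the other compartment arrays. Of 8 probe sets for endosperm markers 3 were highest in the micropylar part including EXPA4, 2 in the chalazal part, 2 in the cellularized part and 1, AGL62, in the chalazal seed coat. Their summed signal was 586 and 649 in the chalazal endosperm, the lowest of the compartments, against 1327 to 12293 on the other compartment arrays. The 3 DME probe sets were low in the chalazal endosperm, with means of 56.4 to 86.0 there against at least 125 in each other compartment. The markers highest in the chalazal endosperm were dim, with means of 136 for MPC and 169 for AGL91 there, against at most 20.8 and 71.7 in the other compartments. No vascular marker was matched. The micropylar and whole-seed arrays carry later identifiers than the other 10, and the labels give no preparation batch, so a separate preparation and the compartment cannot be told apart there.

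The level of every member differed among the 6 compartments. By limma's moderated F test 43 of 43 had an adjusted p below 0.05, in a comparison in which 63.5% of the 15951 tested probe sets did. The micropylar endosperm had the highest mean signal of the 6 compartments for 39 of 43 members. The chalazal seed coat had the lowest for 40. With means on the log scale used for the tests, each of these places was held for 39 members. On that scale 14.1% of all tested probe sets were highest in the micropylar endosperm and 16.9% lowest in the chalazal seed coat. Relative to each member's own mean over the compartments, the median member stood at 1.32-fold in whole seeds, 1.22-fold in the embryo proper, 2.19-fold in the micropylar endosperm, 0.91-fold in the chalazal endosperm, 0.94-fold in the cellularized endosperm, 0.49-fold in the chalazal seed coat and 0.92-fold in the general seed coat. Neighbouring groups were often not separated: of 258 pairs of neighbours in the members' orders, arrays overlapped in 139. These pairs span the whole order of the 7 groups, whole seeds included, and were not split by rank. The same count was not made over all tested probe sets.

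**Figure D1:**
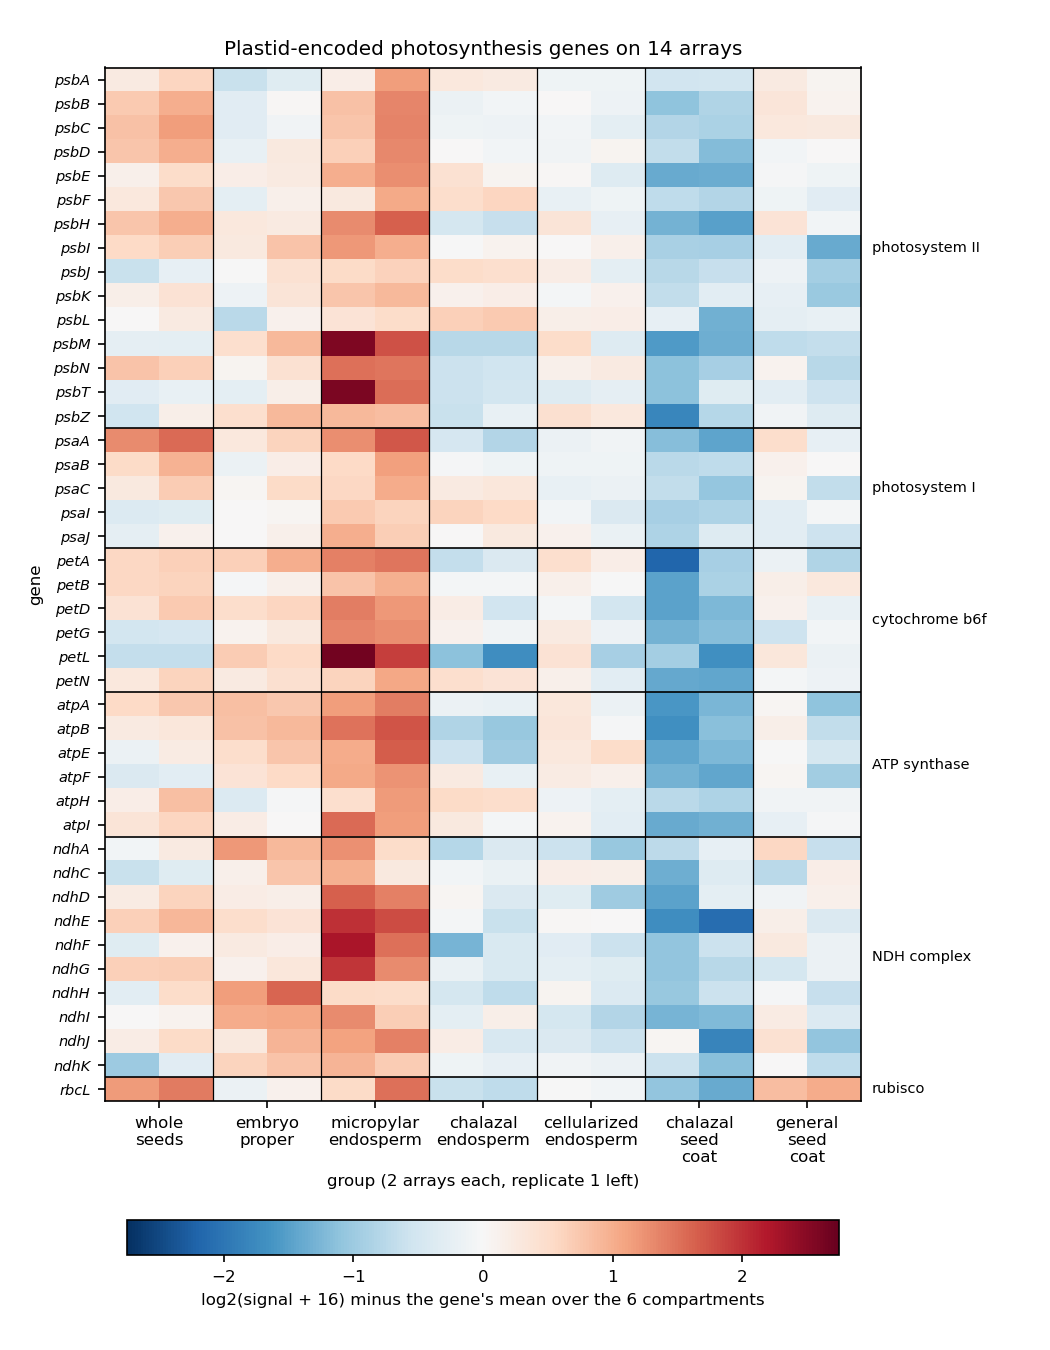
Heat map of the 43 genes (rows, by complex) on 14 arrays (columns, 2 per group), coloured by log2(signal + 16) minus the gene's mean over the 6 compartments. The micropylar columns are red for every gene on at least 1 array, the chalazal seed coat columns are blue for nearly all, and the other compartments lie between.

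Against the mean of the other 5 compartments, 30 of 43 members rose in the micropylar endosperm and 0 fell, while 11.2% of all tested probe sets rose and 6.8% fell. The median change was 1.29 on the log2 scale for the members and 0.00 for all tested probe sets, and it ran from 0.53 for psbL to 2.73 for petL. An adjusted p below 0.05 with any fold was reached by 40 members, against 12% of all tested. Both micropylar arrays lay above all 10 other compartment arrays for 31 members, a position held by 5.96% of all tested probe sets.

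In the chalazal seed coat 30 of 43 members fell against the other 5 compartments and 0 rose, while 12.7% of all tested probe sets fell and 13.6% rose. The median change was -1.13 for members and 0.00 for all tested, with a range from -2.28 for ndhE to -0.57 for ndhA. An adjusted p below 0.05 with any fold was reached by 39 members, against 13.9% of all tested. Both chalazal seed coat arrays lay below all 10 others for 27 members, a position held by 4.63% of all tested probe sets. These 2 comparisons share group means and are not independent: with the micropylar endosperm left out of the others, a setting chosen after seeing the data, 19 members were called lower in the chalazal seed coat.

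**Figure D2:**
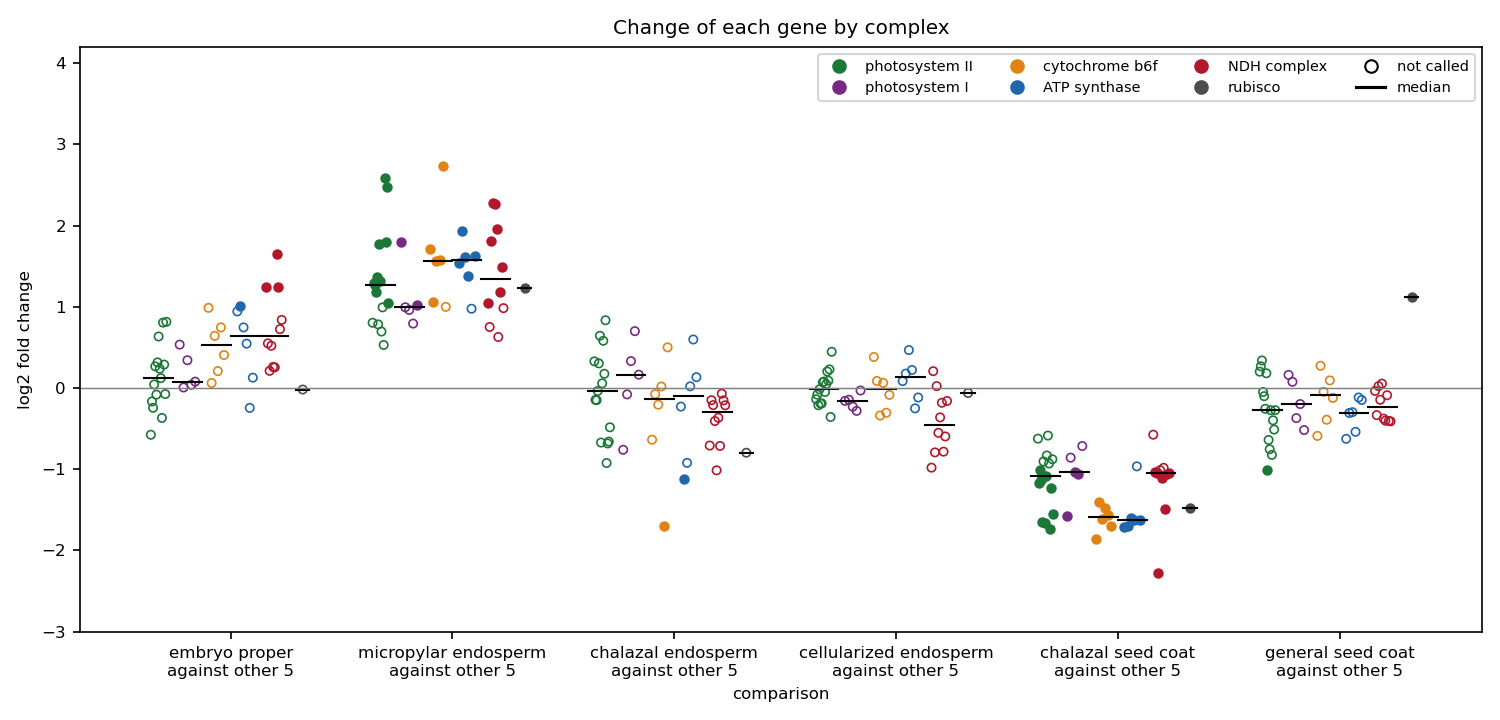
Log2 fold change of each gene in each of the 6 compartments against the mean of the other 5 (columns), coloured by complex; filled points were called (adjusted p below 0.05 and at least 2-fold), open points were not, and black bars are medians of a complex. All points lie above 0 in the micropylar endosperm and below 0 in the chalazal seed coat, and they straddle 0 elsewhere.

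Photosystem II had 10 of 15 genes higher in the micropylar endosperm (median 1.27) and 9 of 15 lower in the chalazal seed coat (median -1.09). The gene psbM, for a small subunit at the dimer interface, read 2695 and 1514 on the micropylar arrays, against 141 to 827 with a median of 268.7 on the 10 others. It rose by 2.58 (SE 0.38, limma adjusted p = 9.58e-05). On the chalazal seed coat arrays psbM read 141 and 164, against a lowest value of 252 elsewhere, and it changed by -1.74 (SE 0.38, limma adjusted p = 0.00191). The micropylar arrays thus lay above and the chalazal seed coat arrays below every other compartment array for psbM.

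The gene psbT, for another small subunit of photosystem II, read 3350 and 1602 in the micropylar endosperm, against 239.8 to 604 elsewhere, and rose by 2.48 (SE 0.37, limma adjusted p = 0.000122). In the chalazal seed coat psbT read 239.8 and 426, which overlapped other compartments. The genes psbN (1.79), whose product acts in assembly of the photosystem, and psbH (1.77), for a small phosphoprotein, also rose in the micropylar endosperm. For psbH the chalazal seed coat arrays read 2897 and 2522, below a lowest value of 4593 elsewhere, a change of -1.67 in that compartment.

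The reaction-centre gene psbA, for the D1 protein that is replaced continually in the light, was called in neither comparison. It read 28448 and 55941 in the micropylar endosperm, against 16312 to 30786 elsewhere, a change of 0.80 that was under the 2-fold limit. Its lowest arrays were those of the embryo proper, 16312 and 19818, and of the chalazal seed coat, 17303 and 17669, and these 2 groups overlapped. In the chalazal endosperm psbA read 30786 and 29855, just above the general seed coat at 29843 and 26571.

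The other reaction-centre and antenna genes of photosystem II moved by 1.18 to 1.29 in the micropylar endosperm, psbD for the D2 protein by 1.18, psbC by 1.27 and psbB by 1.29. Their changes in the chalazal seed coat were -1.13, -1.01 and -1.17, all called. The cytochrome subunits of the photosystem parted in size: psbE rose by 1.37 in the micropylar endosperm and fell by 1.65 in the chalazal seed coat, while its neighbour psbF stood at 0.78 and -0.90, under the limit in each. The smallest micropylar change was that of psbL, a small subunit encoded beside them, at 0.53. It read 2805 and 2934 in the chalazal endosperm, against 697 to 2520 on the 10 other compartment arrays, and was the only member whose chalazal endosperm arrays both lay above all others, as did those of 12.3% of all tested probe sets. Its change there, 0.83, did not reach 2-fold. The micropylar arrays were next for psbL, at 2294 and 2520.

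Photosystem I had 2 of 5 genes higher in the micropylar endosperm (median 0.99) and 3 of 5 lower in the chalazal seed coat (median -1.04). The gene psaA, for a core protein that binds the reaction-centre chlorophyll, read 22946 and 30809 in the micropylar endosperm, against 3417 to 14362 elsewhere, and rose by 1.79. In the chalazal seed coat it read 4210 and 3417, below a lowest value of 5393 elsewhere, and changed by -1.57. The partner core gene psaB read 52333 and 78124 in the micropylar endosperm, against 21635 to 40693 elsewhere, a change of 0.99 that missed the 2-fold limit. Its chalazal seed coat arrays, 21635 and 22227, lay below all others, at a change of -0.86. So psaA and psaB, which are transcribed together, kept the same order of the extreme compartments with changes of different size. The gene psaJ, for a small subunit, was the other one called in the micropylar endosperm (1.02), and psaC, for the iron-sulfur subunit, stood at 0.96 there and -1.04 in the chalazal seed coat. The small-subunit gene psaI read 12132 and 11631 in the chalazal endosperm, which overlapped the micropylar arrays at 13047 and 12050 and lay above the other 4 compartments.

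All 6 genes of the cytochrome b6f complex fell in the chalazal seed coat (median -1.59) and 5 of 6 rose in the micropylar endosperm (median 1.56). The small-subunit gene petL gave the largest micropylar change of all members. It read 5930 and 3512 in the micropylar endosperm, against 273.7 to 1509 with a median of 658 elsewhere, and rose by 2.73 (SE 0.37, limma adjusted p = 4.35e-05). In the chalazal endosperm petL read 417 and 273.7 and in the chalazal seed coat 479 and 279.5, and these 2 chalazal groups overlapped. Whole seeds read 582 on both arrays, below the embryo proper at 1509 and 1373.

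The gene petA, for cytochrome f, read 11293 and 12000 in the micropylar endosperm, against 941 to 8610 elsewhere. Its chalazal seed coat arrays read 941 and 2289, against a lowest value of 2427 elsewhere, a change of -1.86 (SE 0.27, limma adjusted p = 5.21e-05). The gap between the chalazal seed coat and the next array was small for petA, and its 2 chalazal seed coat arrays were far apart. The genes petB for cytochrome b6 and petD for subunit IV rose by 1.06 and 1.56 in the micropylar endosperm and fell by 1.41 and 1.61 in the chalazal seed coat. The small-subunit gene petN, at 1.00 in the micropylar endosperm and just under the limit, read 5166 and 5045 in the chalazal seed coat, against a lowest value of 11244 elsewhere.

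Of the 6 ATP synthase genes 5 rose in the micropylar endosperm (median 1.57) and 5 fell in the chalazal seed coat (median -1.63). The gene atpB, for the catalytic beta subunit, read 17827 and 20733 in the micropylar endosperm, against 1944 to 11699 elsewhere, and rose by 1.93. Its chalazal seed coat arrays read 1944 and 2831, below a lowest value of 3040 elsewhere, at a change of -1.70. That next value belonged to the chalazal endosperm, which at 3544 and 3040 was lower for atpB than the cellularized endosperm at 7894 and 6151. The gene atpA, for the alpha subunit, rose by 1.53 and fell by 1.71 in the same compartments, and atpE, for the epsilon subunit, rose by 1.61 and fell by 1.60. The exception in each was atpH, for the subunit of the proton-driven ring. It read 36587 and 59322 in the micropylar endosperm, which overlapped the chalazal endosperm at 37954 and 36924, and its changes were 0.98 and -0.96.

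The NDH complex had 7 of 10 genes higher in the micropylar endosperm (median 1.34) and 6 of 10 lower in the chalazal seed coat (median -1.04). The gene ndhE read 23211 and 20248 in the micropylar endosperm, against 1338 to 8150 elsewhere, and rose by 2.28. In the chalazal seed coat it read 1771 and 1338, against a lowest value of 3760 elsewhere, and changed by -2.28 (SE 0.21, limma adjusted p = 3.84e-07), the largest fall among members. The dim gene ndhF read 856 and 513 in the micropylar endosperm, against 60.3 to 204 elsewhere, and rose by 2.26, and ndhG read 11999 and 7526, against 1424 to 3804 elsewhere, and rose by 1.96.

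Other genes of the NDH complex were highest in the embryo proper. The gene ndhH read 3886 and 5368 in the embryo proper, against 843 to 2547 on the 10 other compartment arrays, and was the only member whose embryo arrays both lay above all others, as did those of 10.2% of all tested probe sets. For ndhA the embryo proper read 5913 and 4841, which lay within the micropylar pair at 6181 and 3690. For ndhI the embryo proper read 5079 and 5227, also within the micropylar pair at 6216 and 3993. The other 4 compartments lay below both embryo arrays for these 3 genes. The chalazal seed coat arrays read 1566 and 2206 for ndhA, which overlapped the cellularized endosperm at 1708 and 1261. With petL and psbK, ndhA was 1 of 3 members whose lowest mean signal lay outside the chalazal seed coat.

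The gene rbcL, for the large subunit of rubisco, the enzyme that fixes carbon dioxide, had an order of its own. It read 46498 and 56086 in whole seeds, 18714 and 22604 in the embryo proper, 30120 and 59622 in the micropylar endosperm, 13502 and 12739 in the chalazal endosperm, 20476 and 19661 in the cellularized endosperm, 9823 and 7938 in the chalazal seed coat, and 37399 and 42178 in the general seed coat. The chalazal seed coat was below every other array and the chalazal endosperm next, while the general seed coat overlapped the micropylar endosperm. It was the only member called higher in the general seed coat, at 1.12 (SE 0.20, limma adjusted p = 0.000496), in a comparison in which 10.4% of all tested probe sets rose. That call was lost with array medians made equal (0.88) and with the chalazal seed coat left out of the others (0.86), both under 2-fold. It also rose by 1.23 in the micropylar endosperm and changed by -1.48 in the chalazal seed coat.

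**Figure D3:**
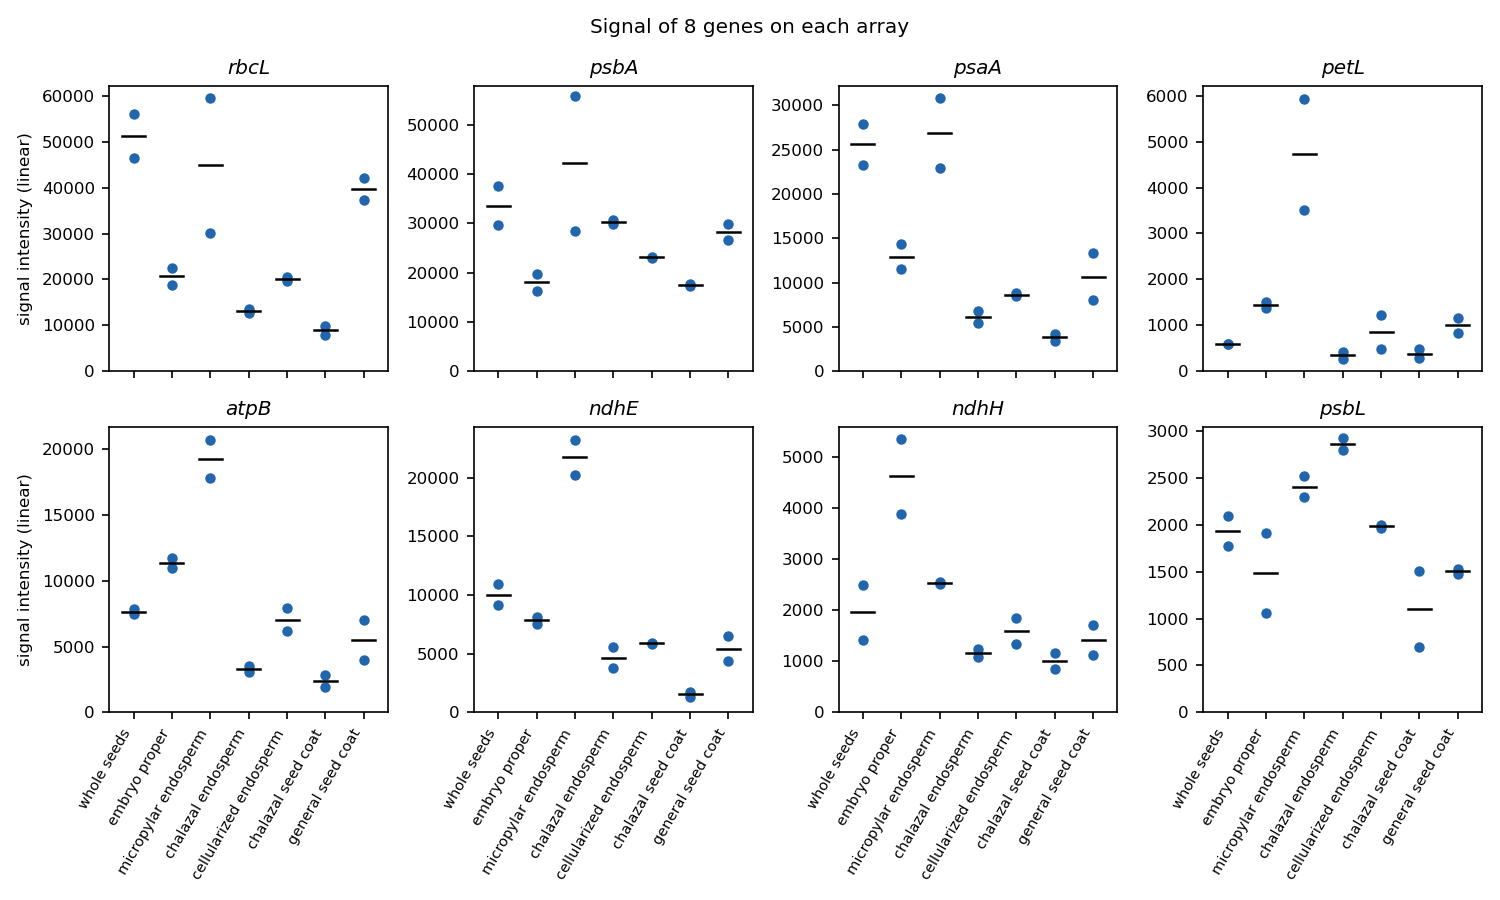
Signal intensity (linear axis from 0) of 8 genes on each of the 14 arrays, with points for arrays and bars for the mean of 2. The micropylar endosperm stands out for petL, atpB and ndhE; rbcL is also high in whole seeds and general seed coat, ndhH is highest in the embryo proper and psbL in the chalazal endosperm.

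The micropylar and cellularized endosperm are adjoining parts of a single tissue, and were also compared directly. Of the members 22 of 43 rose in the micropylar part and 0 fell, while 4.26% of all tested probe sets rose and 2.31% fell. The median change was 1.11 for members and 0.08 for all tested. The genes were 7 of photosystem II, 1 of photosystem I, 3 of the cytochrome b6f complex, 4 of the ATP synthase, 6 of the NDH complex and rbcL. The largest changes were 2.53 for petL (SE 0.47, limma adjusted p = 0.00374), 2.36 for psbT (SE 0.48, adjusted p = 0.00617) and 2.34 for ndhF (SE 0.61, adjusted p = 0.0259). For psbT the micropylar arrays read 3350 and 1602, against 423 and 454 in the cellularized endosperm. For ndhF they read 856 and 513, against 131 and 106 in the cellularized endosperm. The call of ndhF was lost with equal medians (adjusted p = 0.055), with quantile normalization (0.0592) and without any 1 of the 4 arrays (0.0755 to 0.232), that of petL without cellularized replicate 2 or micropylar replicate 1, and that of psbT without micropylar replicate 1. The number called depended on the setting: it was 9 with array medians made equal, 9 without the variance trend, 10 without cellularized replicate 2 and 14 without micropylar replicate 2.

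In the micropylar endosperm the other plastid-encoded genes, which encode ribosomal proteins, the plastid RNA polymerase and other functions, rose for 21 of 26 (median 1.29). Nuclear genes of photosynthesis, of which 15 were tested out of 17 found among 141 listed symbols, rose for 13 of 15 (median 2.27). Among them were NDHS (3.62), PSAN (3.07), PSB27 (2.77) and PSAE-1 (2.57), subunits or assembly factors of the same complexes. The size for PSAN is uncertain, since its reference includes a chalazal endosperm array that reads below the constant added before the logarithm. Of 14 tested probe sets of mitochondrion-encoded respiratory genes 1 fell and the others were not called (median -0.08). The ratio of 3' to 5' signal of control genes is a sign of RNA integrity and priming, and the 3 controls did not order the arrays alike. For GAPDH it was 6.42 and 3.59 in the micropylar endosperm, against 2.72 to 13.65 on the other arrays. For actin it was 23.59 and 10.8 in the micropylar endosperm, against 9.01 to 36.81 on the others, and for ubiquitin 6.03 and 7.5, against 5.36 to 12.02. The part of these ratios in the result was not tested. Against whole seeds, which also carry late identifiers, 11 of 43 members rose in the micropylar endosperm and 0 fell, while 2.88% of all tested probe sets rose and 4.94% fell, a comparison added after seeing the data. Its median was 0.80 for members and -0.10 for all tested. The summed signal of embryo markers was 126 and 184 on the micropylar arrays, and that of seed coat markers 3400 and 2006, where DELTA-VPE gave most of it.

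The chalazal seed coat adjoins the vascular end, and its direct partner is the general seed coat. Of the members 15 of 43 fell in the chalazal seed coat and 0 rose, while 8.32% of all tested probe sets fell and 6.29% rose. The median change was -0.89 for members and -0.05 for all tested. The gene rbcL gave the largest change, -2.17 (SE 0.25, limma adjusted p = 1.93e-05), with 9823 and 7938 in the chalazal seed coat, against 37399 and 42178 in the general seed coat. The gene ndhE, at 1771 and 1338 in the chalazal seed coat against 6483 and 4373 in the general seed coat, changed by -1.78 (SE 0.28, limma adjusted p = 0.000266). The gene psbH, at 2897 and 2522 in the chalazal part against 9200 and 6777 in the general part, changed by -1.54 (SE 0.26, limma adjusted p = 0.000528). The 2 groups did not overlap for any of these. At the other end psbK changed by 0.14 and psbI by -0.07, a pair transcribed together, whose general seed coat replicate 2 was low (15189 for psbK and 1488 for psbI). Without the variance trend 7 members were called.

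In the same comparison of the seed coats 0 of 26 other plastid genes were called by limma (median -0.38, with 8 at an unadjusted p below 0.05), 11 of 15 nuclear photosynthesis genes fell (median -1.99) and 1 of 14 mitochondrial probe sets, for nad4, rose. Against the other 5 compartments the chalazal seed coat had 17 of 26 other plastid genes lower (median -1.11). Of the nuclear photosynthesis genes 11 of 15 were lower (median -2.02), among them PSAN (-4.03), PSAE-1 (-3.49) and PRK (-3.45). The size for PSAN is uncertain here too, since the same chalazal endosperm array is in its reference. Mitochondrial probe sets went the other way in the chalazal seed coat, with 7 of 14 higher and 0 lower (median 1.03). Among them were a nad1 probe set (1.53), nad9 (1.27) and cox1 (1.22). The median changes of plastid and mitochondrial genes thus had opposite signs in this compartment, relative to the rest of the array.

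**Figure D4:**
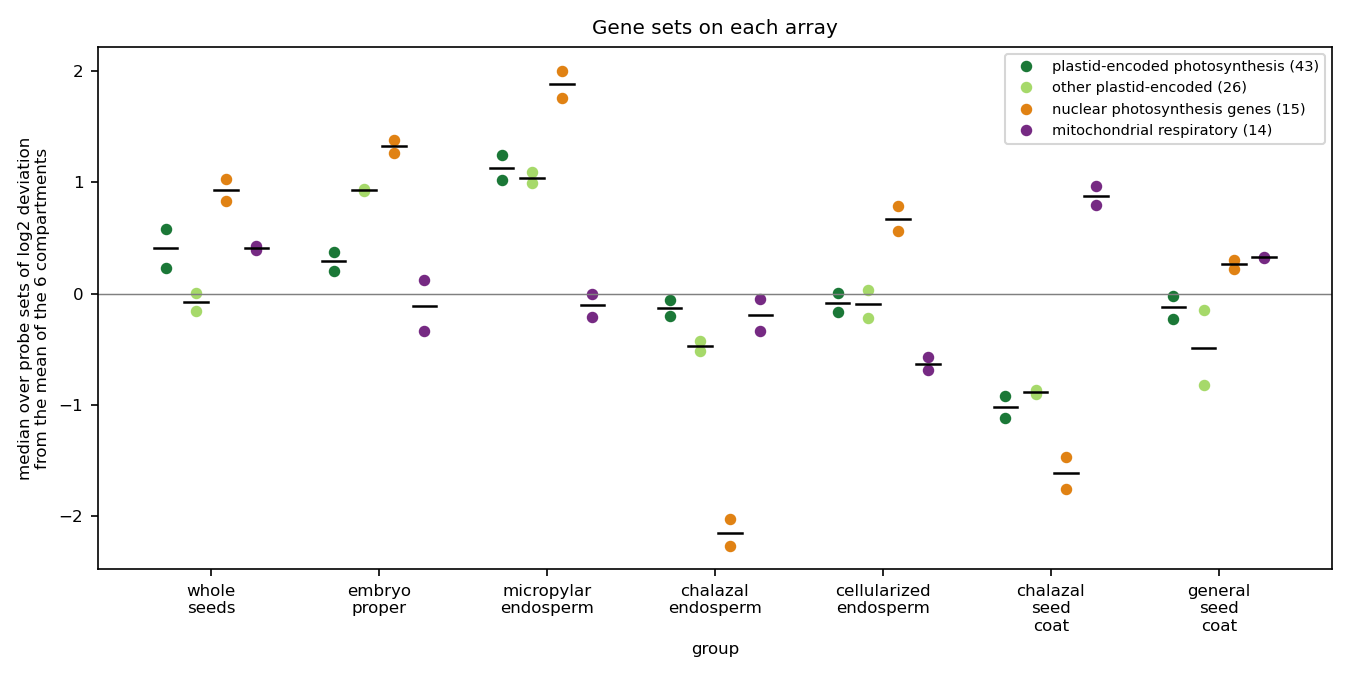
Median over the probe sets of a gene set of log2(signal + 16) minus the probe set's mean over the 6 compartments, with a point per array and a bar for the mean of the 2 arrays of a group. In the chalazal endosperm the 43 plastid-encoded photosynthesis genes lie near 0 and the 15 nuclear ones near -2, while in the chalazal seed coat the plastid-encoded sets are near -1 and the 14 mitochondrial probe sets near 1.

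The chalazal endosperm, the part of the endosperm that faces the vascular end, had few called changes among the 43 plastid-encoded photosynthesis genes. Against the other 5 compartments 2 of 43 members fell and 0 rose, while 22.9% of all tested probe sets fell and 15.8% rose. The members that fell were petL at -1.70 (SE 0.37, limma adjusted p = 0.00123) and atpB at -1.12 (SE 0.22, limma adjusted p = 0.000617). The call of atpB was lost with array medians made equal (-0.876), under 2-fold. It was also lost with the micropylar endosperm left out of the others (-0.765), a setting added after seeing the data. The median change was -0.15 for members and -0.12 for all tested. At an adjusted p below 0.05 with any fold there were 6 members higher and 7 lower, against 17.3% and 24.1% of all tested. Members on the higher side included psbL (0.83), psaI (0.70), psbF (0.64) and atpH (0.60), all under 2-fold. With the chalazal seed coat left out of the others, a setting added after seeing the data, 9 members were called, all of them lower. The share of all tested probe sets in that setting is not given here, and 22.9% fell in the main comparison.

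Of the nuclear photosynthesis genes 14 of 15 fell in the chalazal endosperm (median -2.79). The gene PSAN, for a photosystem I subunit, read 5.04 and 435 there, against 1148 to 6650 in the 4 compartments other than the chalazal pole. Since 1 of its arrays reads below the constant added before the logarithm, no size of change is given for PSAN there. The gene PRK, for the Calvin cycle enzyme phosphoribulokinase, read 404 and 657 in the chalazal endosperm, against 12518 and 11274 in the cellularized endosperm. The changes against the other 5 compartments were -3.51 for SBPASE, -3.48 for LHCB4.3 and -3.39 for PRK. Of the other plastid genes 9 of 26 fell (median -0.58), led by ycf4 (-1.39), an assembly factor of photosystem I. The 3' to 5' ratio of GAPDH was highest in the chalazal endosperm, 13.65 and 8.34, against 2.72 to 7.87 on all other arrays. The other controls did not set these arrays apart: actin gave 14.79 and 9.01 in the chalazal endosperm, against 9.69 to 36.81 elsewhere, and ubiquitin 8.63 and 8.72, against 5.36 to 12.02.

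Set against the cellularized endosperm alone, 2 of 43 members fell in the chalazal endosperm and 0 rose, while 18% of all tested probe sets fell and 14.1% rose. The 2 were atpE at -1.16 (SE 0.27, limma adjusted p = 0.00251) and atpB at -1.08 (SE 0.29, limma adjusted p = 0.00743), which are transcribed together and encode parts of the catalytic head. The gene atpE read 7094 and 5364 in the chalazal endosperm, against 12787 and 14839 in the cellularized endosperm. Neither was called without the variance trend (limma adjusted p = 0.0509 and 0.0695). Both calls were also lost without chalazal endosperm replicate 2, at -0.956 for atpE and -0.972 for atpB. That of atpB was lost without cellularized replicate 1 as well (-0.903). The median of the members was -0.02, and 14 of 15 nuclear photosynthesis genes fell with a median of -2.86.

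The chalazal difference was then compared between the tissues, as the change of chalazal against cellularized endosperm minus that of chalazal against general seed coat. It was higher in the endosperm for 14 of 43 members and lower for 0, while 7.67% of all tested probe sets were called higher and 9.96% lower. The median was 0.86 for members and 0.04 for all tested. The largest values were 1.81 for petN (SE 0.32, limma adjusted p = 0.000837), 1.76 for ndhI (SE 0.46, adjusted p = 0.0135) and 1.70 for psbE (SE 0.32, adjusted p = 0.00148). The calls of ndhI and psbE were lost without the variance trend, and that of ndhI also with some single arrays left out. For petN the chalazal endosperm read 18808 and 17761 against 15096 and 11244 in the cellularized endosperm, and the chalazal seed coat 5166 and 5045 against 13157 and 12358 in the general seed coat. The chalazal part was thus higher than its partner in the endosperm and lower in the seed coat for petN on all arrays. Of the nuclear photosynthesis genes 2 of 15 differed in the other direction, LHCB4.3 (-2.90) and RCA (-2.31), and none in the same direction as the members. Without the variance trend 1 member was called, and without cellularized replicate 2 the number was 8.

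**Figure D5:**
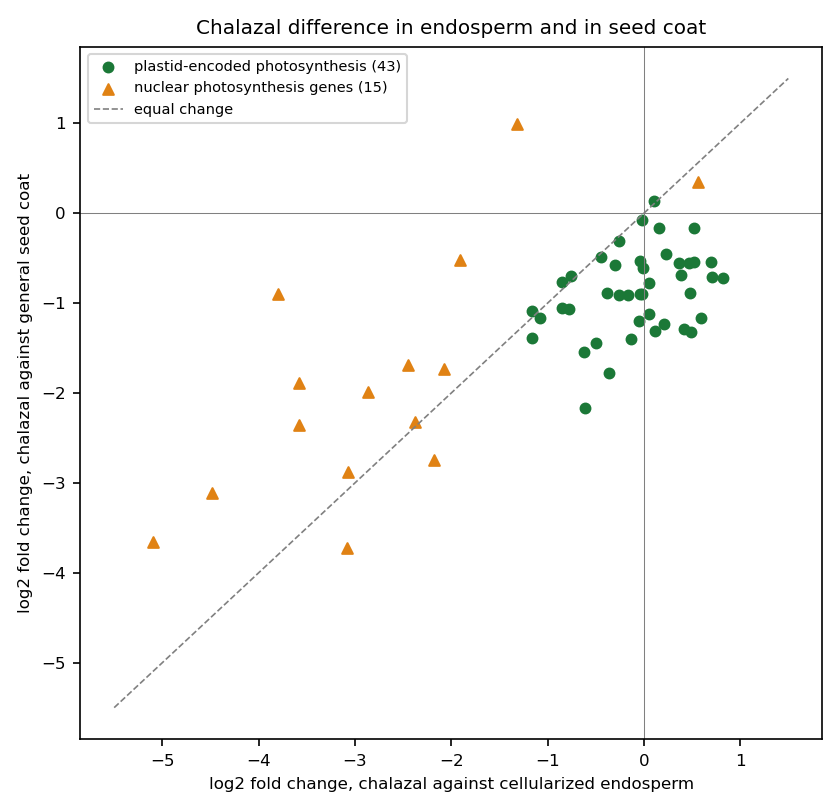
Log2 fold change of chalazal against cellularized endosperm (horizontal) and of chalazal against general seed coat (vertical) for 43 plastid-encoded and 15 nuclear photosynthesis genes; the dashed line marks equal change. Most plastid-encoded genes lie to the right of the line, between -1.16 and 0.82 on the horizontal axis, and most nuclear genes lie to the left at strongly negative values on both axes.

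In the embryo proper 4 of 43 members rose against the other 5 compartments and 0 fell, while 15.1% of all tested probe sets rose and 13.4% fell. The median change was 0.29 for members and -0.01 for all tested. The genes were ndhH at 1.65 (SE 0.29, limma adjusted p = 0.000305), ndhA at 1.25 (SE 0.30, adjusted p = 0.00434), ndhI at 1.24 (SE 0.25, adjusted p = 0.00118) and atpB at 1.02. The call of ndhA was lost without embryo proper replicate 1 (1.102). That of ndhI was lost with the chalazal seed coat left out of the others (0.984), a setting added after seeing the data. The medians by complex were 0.12 for photosystem II, 0.08 for photosystem I, 0.53 for the cytochrome b6f complex, 0.65 for the ATP synthase and 0.64 for the NDH complex, and no difference between complexes was tested. At the low end psbA stood at -0.57, the only member lower at an adjusted p below 0.05 with any fold, where 14.5% of all tested were. The other plastid genes rose for 16 of 26 (median 1.16), led by the polymerase genes rpoC1 (2.03) and rpoB (1.88), and the nuclear photosynthesis genes for 11 of 15 (median 1.65). The count of members depends on which compartments are on the other side, since it was 12 with the micropylar endosperm left out and 2 with the chalazal seed coat left out, both added after seeing the data.

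Against the cellularized endosperm, in a comparison that shares the embryo arrays, 3 of 43 members rose in the embryo proper, ndhA, ndhI and ndhH, while 7.98% of all tested probe sets rose. The changes were 1.85 for ndhA (SE 0.39, limma adjusted p = 0.00331), 1.69 for ndhI (SE 0.33, adjusted p = 0.00173) and 1.52 for ndhH (SE 0.37, adjusted p = 0.00898). For ndhA the embryo proper read 5913 and 4841, against 1708 and 1261 in the cellularized endosperm. No member fell, where 7.33% of all tested did, and 15 of 26 other plastid genes rose (median 1.03). With array medians made equal ndhH lost its call (limma adjusted p = 0.0501). Its call was also lost without embryo proper replicate 2 (1.291) and without cellularized replicate 2 (1.29).

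No member was called in the cellularized endosperm against the other 5 compartments with limma, while 8.18% of all tested probe sets rose and 8.35% fell. At an unadjusted p below 0.05 there were 4. The largest changes were -0.98 for ndhA, -0.79 for ndhD and -0.78 for ndhI, and the median was -0.08, both for members and for all tested. In the general seed coat rbcL was the only member to rise. The only one to fall was psbI, at -1.005 (SE 0.25, limma adjusted p = 0.00839), where 5.69% of all tested probe sets fell. Its call was lost with a pseudocount of 64 (-0.989), with quantile normalization (-0.924) and without the variance trend (limma adjusted p = 0.0685). It was also lost with the micropylar endosperm left out of the others (-0.772), a setting added after seeing the data. The change was -0.456 without general seed coat replicate 2 and -0.954 without embryo proper replicate 2. The gene psbI read 3202 and 1488 in the general seed coat, against 2071 to 9010 elsewhere, so its low value rested on replicate 2. That array also had the lower summed signal of seed coat markers, 13218 against 33020 on the other, and its part in the result was not tested. The median change in the general seed coat was -0.25 for members and -0.01 for all tested.

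The last comparison set whole seeds against an average of the 6 compartments that weights each alike, which is not their share of the seed. Of the members 2 of 43 rose, psaA at 1.43 (SE 0.20, limma adjusted p = 0.00019) and rbcL at 1.297 (SE 0.19, limma adjusted p = 0.000293), and 0 fell, while 6.95% of all tested probe sets rose and 2.79% fell. The gene psaA read 23301 and 27916 in whole seeds, against 3417 to 30809 on the 12 compartment arrays with a median of 8609. Whole seeds overlapped the micropylar arrays for psaA and lay above the other 5 compartments. The median change of members was 0.41, against 0.22 for all tested probe sets, and it was -0.017 with array medians made equal, so the median level relative to the compartments rests on the scaling. The call of rbcL was lost with equal medians (0.865) and with quantile normalization (0.96), both under 2-fold, and that of psaA was kept.

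Plastid genes that are neighbours are often transcribed together, and 37 of the 43 members fall into 11 transcription units known from textbooks, with the other 6 alone. Across the 7 group means of log2(signal + 16), Pearson's r between 2 members had a median of 0.84 over 56 pairs within a unit, 0.78 over 149 pairs of the same complex in different units and 0.78 over 698 pairs that shared neither. Pairs share the same arrays and 7 points, so these are descriptions. The closest pair within a unit was atpB with atpE (0.99), and the other units of 2 genes included psaA with psaB (0.96) and psbK with psbI (0.96). The least alike unit of 2 was psaI with petA (0.57), of which psaI was high and petA low in the chalazal endosperm.

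The largest unit, which runs from ndhH to ndhD and holds psaC, had members that differed in the embryo proper. There ndhH, ndhA and ndhI, at its start, changed by 1.65, 1.25 and 1.24 against the other 5 compartments, while ndhG, ndhE, psaC and ndhD, further along, stood at 0.26, 0.52, 0.34 and 0.21. In the micropylar endosperm the order was different: ndhE, ndhG and ndhD rose by 2.28, 1.96 and 1.81, and ndhI, ndhA and ndhH stood at 1.18, 1.05 and 0.63. The unit that starts with psbB joins photosystem II and cytochrome genes, and its r values ran from 0.67 to 0.96. Within it psbT (2.48) stood above psbB (1.29), psbH (1.77), petB (1.06) and petD (1.56) in the micropylar endosperm. Differences between members of a unit were not tested, and the probe sets differ in their own response.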

How the data were processed

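The 14 arrays measured transcripts in 7 seed samples with 2 replicates each, grouped by their titles. The deposited values are linear intensity signals in 1 colour, which the authors scaled so that the mean without the lowest and highest 2% is 500 on each array. GCOS is the software named per the submitters' processing notes, with no version. Total RNA of 2 to 5 ng was amplified with the WT-Ovation Pico system, per the labels' protocols. The build behind the probes is not given in the sources used here.

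From these values log2(signal + 16) was computed. A filter kept for testing 15951 of 22746 probe sets, those that reached their array's median on at least 2 arrays, after removal of 64 controls; all 43 members passed. Genes came from the platform's annotation table, with 1 gene for 13513 probe sets, several for 503 and none for 8794, and symbols from the RefSeq gene table, which matched 13436. Mitochondrial genes have no locus tag in that table and were taken by their nad and cox symbols. A list of plastid transcription factors and polymerases matched no probe set by symbol. The model, in limma 3.58.1 under R 4.3.3, had a mean for each group, 7 residual degrees of freedom and a variance trend, two-sided, with Benjamini-Hochberg adjustment over all tested probe sets in each of 12 comparisons, and a moderated F test among compartments. The fit was tested on simulated data.

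Every member could be named; full statistics go to the 3 largest rises and falls called in a comparison, and other genes to at most 4 a list by size of change. Members and lists were chosen with earlier results of these data known. Alternatives were other pseudocounts (1 and 64), other filters, equal medians, quantile normalization, scaling without organelle probe sets, no variance trend, a replicate block, compartments left out of the others and each array left out in turn. Transcription units are those known from textbooks.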

Additional observations from a re-analysis of the deposited data

Results flagged for a closer look

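The difference between the chalazal changes of the endosperm and of the seed coat was tested directly. The endosperm change was called higher than the seed coat change for 14 of 43 members. Of all tested probe sets 7.67% were called higher and 9.96% lower. In chalazal against cellularized endosperm itself 0 members were called higher, while in chalazal against general seed coat 15 were called lower. The largest differences were those of petN (1.81), ndhI (1.76) and psbE (1.70) on the log2 scale. Without the variance trend ndhI and psbE lost their call. The call of ndhI also hung on single arrays. It was lost on leaving out replicate 2 of the cellularized endosperm (1.60) or replicate 2 of the chalazal endosperm (1.55). Dropping replicate 1 of the general seed coat (1.45) lost it too. In the chalazal endosperm psbE read 14704 and 11555, against 11121 and 8606 in the cellularized endosperm, and in the chalazal seed coat 4183 and 4240, against 10648 and 10005 in the general seed coat. For psbE the chalazal part was higher on both arrays in the endosperm and lower on both in the seed coat. GAPDH 3' to 5' ratios were 13.65 and 8.34 in the chalazal endosperm, against 7.16 and 5.78 in the cellularized endosperm. Actin ratios went the other way, with 14.79 and 9.01 in the chalazal endosperm against 19.51 and 11.97 in the cellularized endosperm. Ubiquitin ratios were 8.63 and 8.72 in the chalazal endosperm, against 10.25 and 8.88 in the cellularized endosperm. The part of these ratios in the difference was not tested.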

How the results depend on the processing

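Of 701 recomputed values for 29 results on named members, 662 kept the call, 39 lost it and 0 changed sign, and 14 of the 29 lost their call under at least 1 alternative. Part of this was fixed in advance. The change cannot move where the array left out belongs to a group outside the comparison, or where only the filter or variance trend differs. The share that kept the call is therefore no measure of robustness. Counts of members called moved by over 1.5 times as follows. Without the variance trend the count was 0 for chalazal against cellularized endosperm, 9 for micropylar against cellularized endosperm, 7 for chalazal against general seed coat, 1 for the difference between the chalazal changes and 1 for the general seed coat. With equal medians it was 9 for micropylar against cellularized endosperm (median 0.79) and 1 for the general seed coat, and the median was 0.19 for the cellularized endosperm and -0.017 for whole seeds. Quantile normalization gave 1 for whole seeds and 1 for the general seed coat, and a pseudocount of 64 gave 1 for the general seed coat. With the chalazal endosperm left out of the others the count for the cellularized endosperm was 1. With the micropylar endosperm left out, added after seeing the data, counts were 12 for the embryo proper (median 0.67), 1 for the chalazal endosperm (median 0.12), 19 for the chalazal seed coat and 1 for the general seed coat (median 0.026), and the cellularized median was 0.19. With the chalazal seed coat left out, also added, they were 2 for the embryo proper, 9 for the chalazal endosperm, 3 for the cellularized endosperm (median -0.37) and 4 for the general seed coat. Against whole seeds 11 rose in the micropylar endosperm (median 0.80). The cause of these moves was not tested, beyond the change in the compartments compared.

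With each array left out in turn, counts ran from 24 to 36 for the micropylar endosperm and from 26 to 32 for the chalazal seed coat, where no array moved them by over 1.5 times. They ran from 0 to 1 for the cellularized endosperm, 1 to 6 for the general seed coat (6 without its replicate 1), 0 to 3 for chalazal against cellularized endosperm (0 without chalazal replicate 2 and 1 without cellularized replicate 1), 10 to 24 for micropylar against cellularized endosperm (10 without cellularized and 14 without micropylar replicate 2), 8 to 17 for the difference between the chalazal changes (8 without cellularized replicate 2, medians from 0.69 to 1.14) and 2 to 5 for whole seeds (5 without its replicate 1). The F test gave 39 to 43. In the lone-array fits a single array is assumed to vary like the other groups. Same-numbered arrays shared little deviation from their group means: correlations ran from -0.11 to 0.15 over 21 pairs of groups. This cannot show whether same-numbered samples shared plants or a preparation, which the labels do not say. With a replicate block the count was 30 for the micropylar endosperm, 30 for the chalazal seed coat, 3 for chalazal against cellularized endosperm and 16 for chalazal against general seed coat, and no count moved by over 1.5 times. Dim members such as ndhF are limited by signal near background.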

Other observations

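Genes that serve the plastid-encoded complexes from the nucleus had profiles of their own. Of all tested probe sets 15.1% rose in the embryo proper and 11.2% in the micropylar endosperm against the other 5 compartments. In the chalazal endosperm 22.9% fell, and in the chalazal seed coat 12.7%. Of 7 chlorophyll synthesis genes tested 6 rose in the embryo proper against the other 5 compartments (median 1.77), led by CHLM (2.84) and PORB (2.73), enzymes of the magnesium branch, and 3 rose in the micropylar endosperm (median 1.26). In the chalazal endosperm 3 of 7 fell, CHLM, PORB and CHLI2. CHLM read 29.8 and 13.8 and PORB 21.0 and 92.0 there, near the constant of 16 added before the logarithm, so sizes are not given. The same arrays enter the reference for CHLM and PORB in the embryo proper, so those sizes are uncertain. In the chalazal seed coat 5 of 7 fell (median -1.54). Of 7 assembly factors tested 4 rose in the embryo proper (median 1.43), led by PAM68 (2.99), a photosystem II assembly factor, and 1 rose in the micropylar endosperm, HCF101 (1.35), which acts in iron-sulfur assembly of photosystem I. Of 8 genes of plastid RNA processing 0 were called in the embryo proper (median 0.93) and 0 in the micropylar endosperm (median 0.35) with limma, and 2 and 1 had an unadjusted p below 0.05, while CRR28, an editing factor for NDH transcripts, was called lower in the chalazal endosperm and the chalazal seed coat, where it read 2.78 to 7.25, too near background for a size.

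In the cellularized endosperm mitochondrial probe sets were lower for 2 of 14 (median -0.59), while 8.35% of all tested probe sets fell. They were cox2 (-1.48) and a nad5 probe set (-1.06). The difference of this small count from that share was not tested. No plastid-encoded photosynthesis gene was called there. In the general seed coat the other plastid genes fell for 5 of 26 (median -0.52), while 5.69% of all tested probe sets fell. The falls were led by rpl16 (-1.49) and rpl22 (-1.32), genes of ribosomal proteins, while rbcL rose there.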
